A study of Mus musculus with 34 samples.

Results

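The genes described here are 7 listed as associated with follicular helper T (TFH) cells: Cxcr5, Il21, Bcl6, Tox, Tox2, Sh2d1a and Angptl2. They were taken by name from the 27179 gene identifiers of the count tables, and all 7 had a row. Of the 7, 6 passed the filter on low counts, as did 11357 genes in all. Bcl6 did not pass and is given as counts with intervals.

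Messenger RNA was counted in 34 libraries of CD4 T cells from C57BL/6 mice. Naive cells had been grown for 3.5 days on plate-bound antibodies to CD3 and CD28, which stimulate the T cell receptor and its co-receptor, and were then sorted. The 6 groups differ in a culture code and a number: TfhA_4e4 (5 libraries), Tfh5_4e4 (6), and, with code Tfh2, Tfh2_1e4 (6), Tfh2_2e4 (5), Tfh2_4e4 (6) and Tfh2_6e4 (6). Strain, stimulus and time in culture were the same in all of them. The labels leave undefined what the codes mean, what the number counts, how cells were gated, and whether replicates came from separate animals or cultures. P-values therefore measure the spread between these libraries, which may be technical. The series title names TGF-beta, the transcription factor c-Maf and the choice between the TFH and TH17 fates.

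TFH cells enter B cell follicles and help B cells in germinal centres. CXCR5, the receptor for the chemokine CXCL13, leads them there, interleukin 21 (Il21) acts on B cells, and SAP, the adaptor protein encoded by Sh2d1a, couples SLAM family receptors to stable contact with B cells. Bcl6 is the transcriptional repressor that defines the lineage. Tox and Tox2 encode related HMG-box DNA-binding proteins of T cell development and of TFH cells, and Angptl2 encodes a secreted glycoprotein of the angiopoietin-like family.

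Libraries held 4481509 to 9934245 counts. Identifiers 100861531 and 19791, which carry no symbol in the annotation used, held 48.3% of all counts, and 2292557 to 5343465 counts per library remained beside them. All 7 T cell markers on the list, Cd4 and Cd3e among them, had counts in every group, with a summed level of 1520 to 1563 CPM in TfhA_4e4 and 1425 to 2072 CPM in the other groups. CPM is the field's unit of counts scaled to the normalized library total. Libraries labelled TfhA_4e4 stood apart in their share of mitochondrial ribosomal RNA, 6.30% to 9.23% of counts, against 3.06% to 6.05% elsewhere. The 20 genes raised most in TfhA_4e4 against Tfh5_4e4 were picked from these same libraries, so the gap between those groups follows from the choice. Their summed level was 1548 to 1824 CPM in TfhA_4e4 and 23.7 to 58.8 CPM in 27 other libraries. It reached 355 CPM in Tfh2_4e4 replicate 3 and 261 CPM in Tfh2_2e4 replicate 6. Those 2 libraries stood apart from their groups, and results that rest on them are given with and without them.

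Promoter windows of RefSeq (GRCm38.p6, from 250 bases before to 50 bases after a gene start) were available for 4 of the 7 genes. The sequences of 3 of them, which passed in at least 1 comparison, are shown, and the matches of Bcl6 are given in words. Positions count from 0 at the start. Capitals mark TGCTGA, the half-site of Maf proteins, and CAGAC, the SMAD element of TGF-beta signalling, on either strand (GTCTG where reversed). The Il21 window, chr3:37232587-37232886 on the minus strand, held both: TGCTGA began at position -234 and CAGAC at position 24 relative to the start.
Il21: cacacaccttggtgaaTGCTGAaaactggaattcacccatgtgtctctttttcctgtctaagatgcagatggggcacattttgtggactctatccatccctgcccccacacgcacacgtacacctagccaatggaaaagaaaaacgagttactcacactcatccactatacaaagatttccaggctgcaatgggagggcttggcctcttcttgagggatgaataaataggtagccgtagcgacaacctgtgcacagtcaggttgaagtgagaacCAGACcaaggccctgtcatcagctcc
Of 5 annotated Tox2 starts, the fourth had a window (chr2:163225203-163225502, plus strand) with TGCTGA at position 7 and a reversed CAGAC at position -210. It was chosen for display after the search, and the fifth start, 1 base further on, holds the same letters.
Tox2: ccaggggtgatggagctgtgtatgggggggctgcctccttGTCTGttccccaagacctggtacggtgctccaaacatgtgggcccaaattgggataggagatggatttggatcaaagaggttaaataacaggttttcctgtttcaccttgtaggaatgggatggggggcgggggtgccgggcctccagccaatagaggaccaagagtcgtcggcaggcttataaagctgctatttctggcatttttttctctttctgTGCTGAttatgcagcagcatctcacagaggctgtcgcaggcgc
The Angptl2 window, chr2:33215711-33216010 on the plus strand, held a reversed CAGAC at position 0, the start itself, and no TGCTGA.
Angptl2: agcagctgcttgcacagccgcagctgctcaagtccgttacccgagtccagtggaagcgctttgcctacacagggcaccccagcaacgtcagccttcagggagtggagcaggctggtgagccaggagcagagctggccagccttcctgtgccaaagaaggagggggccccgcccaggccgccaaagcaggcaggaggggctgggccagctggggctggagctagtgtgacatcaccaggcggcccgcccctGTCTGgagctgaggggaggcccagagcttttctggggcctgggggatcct
These letters are common. TGCTGA was found in 19.5% and CAGAC in 49.6% of 32851 promoter windows of the same length. The other letters searched on both strands were TGANTCA (AP-1, in 7.81% of windows), TTCNNNGAA (STAT, 8.30%) and ACGTG (hypoxia element core, 19.6%), and TGCTGA may overlap TGANTCA. The hypoxia element core also occurred in the Il21 window, reversed at position -136. The first of 2 Bcl6 windows (chr16:23988803-23989102, minus strand) held the SMAD element at position -175, the STAT site at -118 and 2 matches of the hypoxia element core, and the second (chr16:23981234-23981533) held the STAT site at 3 positions. Neither Bcl6 window held the Maf half-site. None of the 5 occurred in the first 3 Tox2 windows. A match describes the letters and not a bound site. No window was matched for Cxcr5, Tox and Sh2d1a.

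The first comparison asks how the genes differed between codes TfhA and Tfh2 at the number 4e4. Of 6 genes tested, 4 were lower in TfhA_4e4 (Tox2, Cxcr5, Angptl2 and Il21) and Tox and Sh2d1a did not pass. Among all 11357 genes, 32.8% passed (edgeR, adjusted p under 0.05), 15.5% higher and 17.4% lower. The median log2 fold change was -1.72 over the 6 members and -0.01 over all genes. In these bulk samples, fewer cells that express a gene and less of its RNA per cell cannot be told apart.

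**Figure D1:**
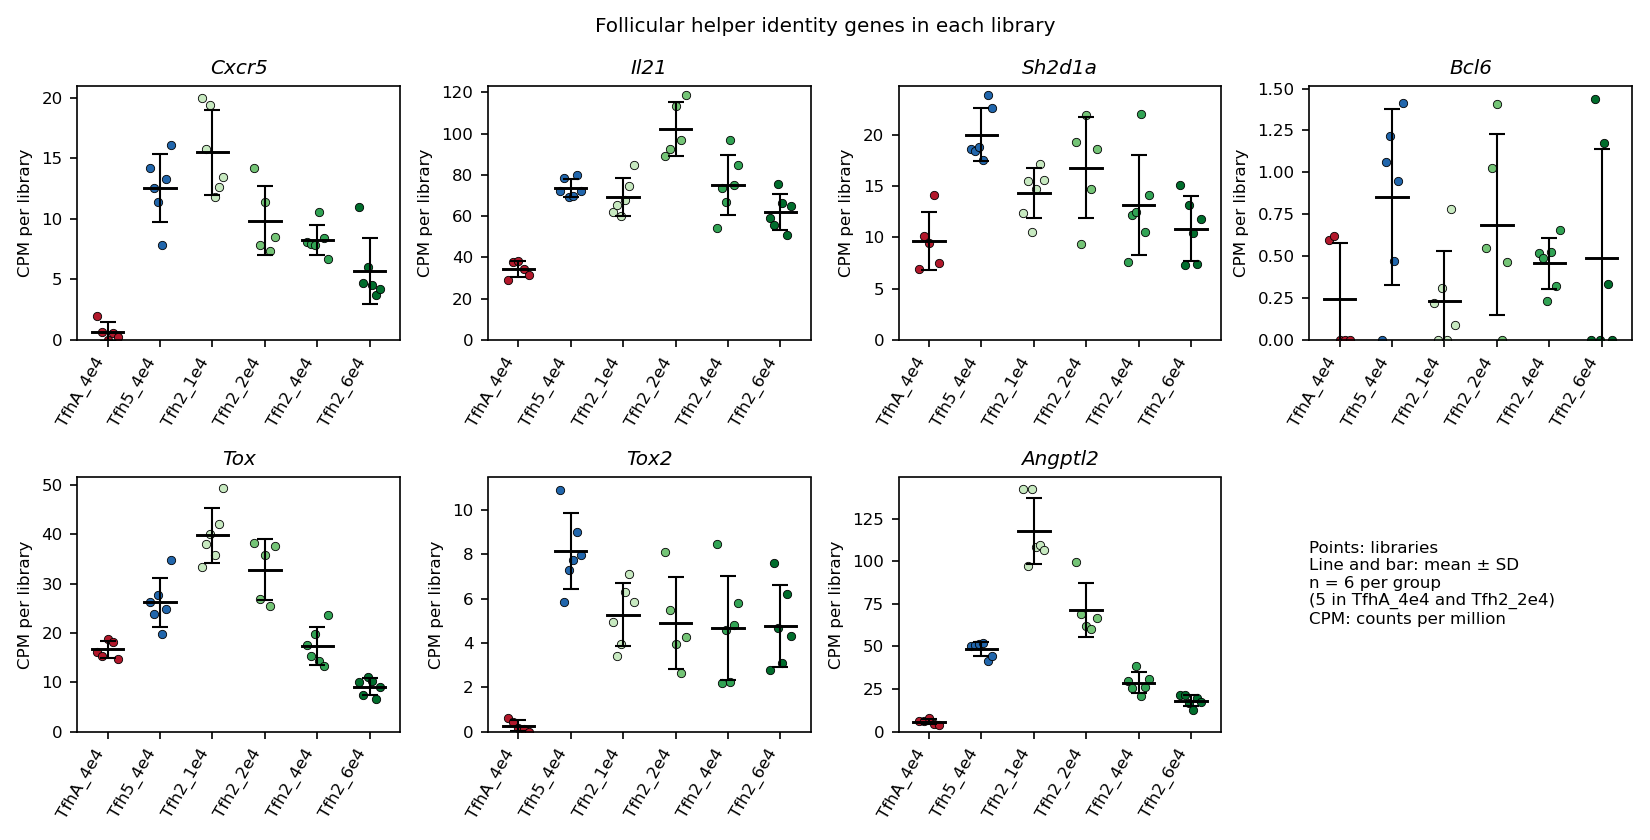
CPM of each gene in each library (points), with group means and SD (line and bar), on linear axes from 0; groups run from TfhA_4e4 and Tfh5_4e4 to the Tfh2 groups by number. Cxcr5, Il21, Tox2 and Angptl2 sit lower in all 5 TfhA_4e4 libraries than in every other library, while the Tox points of TfhA_4e4 lie among those of Tfh2_4e4.

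Tox2 (chr2:163203058-163324172, plus strand) was nearly absent from TfhA_4e4. Its 5 libraries had 0.596, 0.414, 0.166, 0.120 and 0 CPM, or 7 counts in all. In Tfh2_4e4 the lowest library had 2.19, the median 4.70 and the highest 8.47 CPM, from 206 counts. No TfhA_4e4 library reached the lowest Tfh2_4e4 library. The log2 fold change was -4.14 ± 0.51 (SE; edgeR adjusted p = 6.01e-09). The ratio of summed counts, TfhA_4e4 over Tfh2_4e4, was 0.0542, with a 95% interval of 0.0215 to 0.114 that covers counting error only.

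Tox, the relative of Tox2, did not pass in this comparison. TfhA_4e4 libraries had 16.1, 15.3, 18.7, 18.2 and 14.8 CPM, and Tfh2_4e4 libraries ran from 13.4 over a median of 16.5 to 23.7 CPM. The groups overlapped, and the log2 fold change was -0.06 ± 0.16 (edgeR adjusted p = 0.818), with an approximate 95% interval of -0.38 to 0.26. These relatives thus had the largest and the smallest estimated change of the 6 genes tested. Tox lies at chr4:6686353-6991557 on the minus strand.

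Cxcr5 (chr9:44511787-44526444, minus strand) came close to Tox2 in the size of its fall. It had 1.99, 0.621, 0, 0.599 and 0.235 CPM in the TfhA_4e4 libraries, from 19 counts, of which 10 lay in replicate 1. In Tfh2_4e4 the lowest, median and highest libraries had 6.69, 8.02 and 10.6 CPM. All TfhA_4e4 libraries were below all Tfh2_4e4 libraries. The log2 fold change was -3.58 ± 0.39 (edgeR adjusted p = 3.69e-10), and without TfhA_4e4 replicate 1 it was -4.39. Exons of Cxcr5 and of Bcl9l, a gene on the opposite strand, share 110 bases, and the strand setting of the counts is not given in the sources used here. Bcl9l averaged 8.47 ± 1.97 CPM in TfhA_4e4 and 19.2 ± 3.63 CPM in Tfh2_4e4 (SD, n = 5 and 6). Antisense exons also overlap Il21 (Gm12534, 469 bases), Tox (Gm11802, 260 bases), Bcl6 (Gm37419, 21 bases) and Sh2d1a (Tenm1, 1465 bases, with 15 counts in all libraries).

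Angptl2 (chr2:33215951-33247725, plus strand) had 5.96, 6.01, 8.12, 4.67 and 3.99 CPM in TfhA_4e4, against a lowest, median and highest value of 21.1, 27.99 and 38.8 CPM in Tfh2_4e4. The groups lay clear of each other. The log2 fold change was -2.31 ± 0.18 (edgeR adjusted p = 2.83e-14). Il21 (chr3:37222759-37232636, minus strand) had 29.2, 37.7, 38.3, 34.4 and 31.7 CPM there. Tfh2_4e4 libraries had 54.4 CPM at the lowest, 74.4 at the median and 96.7 at the highest. Il21 thus fell less far than Tox2, Cxcr5 and Angptl2, by 1.14 ± 0.13 on the log2 scale (edgeR adjusted p = 5.02e-10), again without overlap between the groups.

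Sh2d1a (chrX:42502565-42522097, plus strand) had 6.96, 10.1, 9.44, 14.1 and 7.52 CPM in TfhA_4e4 and ran from 7.60 over 12.3 to 22.0 CPM in Tfh2_4e4. The groups overlapped widely. The log2 fold change was -0.43 ± 0.23 (edgeR adjusted p = 0.146), and without TfhA_4e4 replicate 5, the highest of its group, it was -0.63 (adjusted p = 0.0474). Groups did not overlap for 4 of the 6 members, against 19.4% of all genes. With the mitochondrial RNA share as a covariate the same 4 genes passed. Log2 fold changes were -4.05 for Tox2, -3.25 for Cxcr5, -1.86 for Angptl2 and -1.27 for Il21. Sh2d1a and Tox did not pass, at -0.82 (edgeR adjusted p = 0.0591) and -0.11 (adjusted p = 0.783). Every TfhA_4e4 library had a higher share than all other libraries, so this fit cannot separate the share from the code.

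TfhA_4e4 was next set against Tfh5_4e4, a comparison that shares the TfhA_4e4 libraries with the one above. All 6 genes tested were lower in TfhA_4e4, and for all 6 the groups did not overlap. Over all genes 39.5% passed, 19.1% higher and 20.4% lower, and groups did not overlap for 25.2%. The member median was -2.09 on the log2 scale, against 0.0045 over all genes. The TfhA_4e4 values are those given above.

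For Tox2, Tfh5_4e4 libraries ran from 5.83 over a median of 7.86 to 10.9 CPM, and the log2 fold change of TfhA_4e4 was -4.94 ± 0.49 (edgeR adjusted p = 2.16e-11). Cxcr5 ran from 7.88 over 12.9 to 16.1 CPM in Tfh5_4e4, a log2 fold change of -4.18 ± 0.39 for TfhA_4e4 (adjusted p = 2.30e-12), and without TfhA_4e4 replicate 1 it was -4.97. For Angptl2 the Tfh5_4e4 values were 41.6, 50.7 and 52.0 CPM at the lowest, median and highest library, with a log2 fold change of -3.07 ± 0.18 (adjusted p = 1.40e-18). These 3 genes again had the largest changes of the members.

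Il21 had 69.3, 72.2 and 80.0 CPM at the lowest, median and highest Tfh5_4e4 library, and fell by 1.10 ± 0.13 on the log2 scale in TfhA_4e4 (edgeR adjusted p = 7.60e-10). Sh2d1a had 17.5, 18.7 and 23.9 CPM in Tfh5_4e4 and fell by 1.03 ± 0.23 in TfhA_4e4 (adjusted p = 0.000283). Tox had 19.7, 25.5 and 34.8 CPM in Tfh5_4e4 and fell by 0.64 ± 0.16 in TfhA_4e4 (adjusted p = 0.00122). For Tox and Sh2d1a this is a pass where the comparison with Tfh2_4e4 gave none. The highest TfhA_4e4 library lay just below the lowest Tfh5_4e4 library for Tox, at 18.7 against 19.7 CPM.

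**Figure D2:**
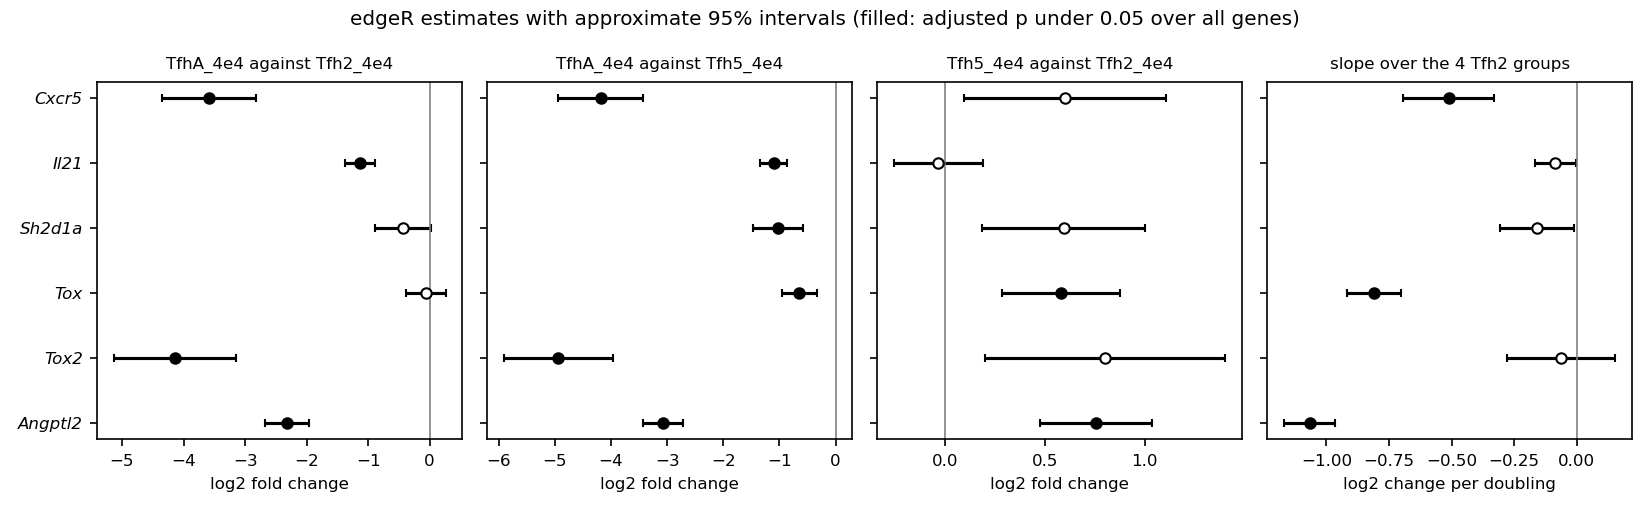
Log2 fold changes of the 6 genes tested, with approximate 95% intervals, for the 3 pairs of codes and for the slope over the 4 Tfh2 groups; filled points passed edgeR at an adjusted p under 0.05 over all genes. Tox2 and Cxcr5 lie furthest below 0 in both TfhA_4e4 panels (-4.14 and -3.58, then -4.94 and -4.18), and Angptl2 and Tox are the filled points of Tfh5_4e4 against Tfh2_4e4.

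Fewer genes differed between codes Tfh5 and Tfh2 at 4e4. Angptl2 and Tox were higher in Tfh5_4e4, which is 2 of 6 genes tested, while 3.11% of all genes passed, 1.41% higher and 1.7% lower. Angptl2 had 41.6, 50.7 and 52.0 CPM in Tfh5_4e4 and 21.1, 27.99 and 38.8 CPM in Tfh2_4e4 at the lowest, median and highest library, and the groups did not overlap. This held for 1 of the 6 members and for 2.25% of all genes. Angptl2 had a log2 fold change of 0.76 ± 0.14 (edgeR adjusted p = 0.000668).

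Tox had 19.7, 25.5 and 34.8 CPM in Tfh5_4e4 and 13.4, 16.5 and 23.7 CPM in Tfh2_4e4, with some overlap. Its log2 fold change was 0.58 ± 0.15 (edgeR adjusted p = 0.0207). The call was lost without Tfh5_4e4 replicate 6 (0.49, adjusted p = 0.0814), without Tfh2_4e4 replicate 5 (0.50, adjusted p = 0.0839) and in a fit of these groups alone (0.59, adjusted p = 0.0503). It was kept without Tfh2_4e4 replicate 3 and Tfh2_2e4 replicate 6 together.

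The other 4 genes did not pass between Tfh5_4e4 and Tfh2_4e4. Tox2 had a log2 fold change of 0.80, with an approximate 95% interval of 0.20 to 1.41 (edgeR adjusted p = 0.164). Cxcr5 stood at 0.60, interval 0.09 to 1.11 (adjusted p = 0.244), and Sh2d1a at 0.59, interval 0.19 to 1.002 (adjusted p = 0.115). Il21 was at -0.03, interval -0.26 to 0.19 (adjusted p = 0.944), the narrowest interval of the 6. With limma-voom in place of edgeR, Tox2 passed (0.93, adjusted p = 0.0450), and without Tfh2_4e4 replicate 4 Sh2d1a passed (0.81, adjusted p = 0.0180).

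The number in the label was examined within code Tfh2. Angptl2, Tox and Cxcr5 fell as the number rose, and Il21, Sh2d1a and Tox2 did not pass. These are 3 of 6 members with a slope, against 46.9% of all genes, 24.1% rising and 22.8% falling. The steps between neighbouring numbers had fewer calls over all genes. In Tfh2_2e4 against Tfh2_1e4, 5.26% passed (4.06% higher, 1.2% lower) and 3.98% did not overlap, beside 2 and 1 of the 6 members. In Tfh2_4e4 against Tfh2_2e4, 13% passed (7.59% higher, 5.4% lower) and 7.04% did not overlap, beside 3 and 2 members. In Tfh2_6e4 against Tfh2_4e4, 1.48% passed (0.616% higher, 0.863% lower) and 1.07% did not overlap, beside 2 and 1 members. The slope is the log2 change per doubling of the number, and groups are given from low to high.

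Angptl2 fell at every step. Its mean level was 118 ± 19.4 CPM in Tfh2_1e4, 71.5 ± 16.0 in Tfh2_2e4, 28.7 ± 6.02 in Tfh2_4e4 and 18.2 ± 3.43 in Tfh2_6e4 (SD, n = 6, 5, 6 and 6). At 6e4 that was 15.4% of its mean at 1e4. The slope was -1.07 ± 0.05 (SE; edgeR adjusted p = 1.88e-21). Step by step, the log2 fold change was -0.72 in Tfh2_2e4 against Tfh2_1e4 (adjusted p = 0.000733), -1.32 in Tfh2_4e4 against Tfh2_2e4 (8.60e-09) and -0.66 in Tfh2_6e4 against Tfh2_4e4 (0.0138). The last step lost its call without Tfh2_4e4 replicate 3 (-0.54, adjusted p = 0.0796), without Tfh2_6e4 replicate 4 (-0.56, adjusted p = 0.0552), and without both libraries that stood apart (-0.54, adjusted p = 0.0763).

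Tox fell later along the range. It had 33.4, 39.0 and 49.4 CPM at the lowest, median and highest library of Tfh2_1e4, and 38.2, 26.9, 35.9, 25.5 and 37.6 CPM in the 5 libraries of Tfh2_2e4. It then had 13.4, 16.5 and 23.7 CPM in Tfh2_4e4 and 6.69, 9.54 and 11.1 CPM in Tfh2_6e4. The groups overlapped over the first step and were separate over the second and the third. The step from 1e4 did not pass, at -0.27 in Tfh2_2e4 against Tfh2_1e4 (edgeR adjusted p = 0.399). The next steps stood at -0.92 in Tfh2_4e4 against Tfh2_2e4 (2.77e-05) and -0.94 in Tfh2_6e4 against Tfh2_4e4 (0.000571). The slope was -0.81 ± 0.06 (adjusted p = 1.19e-16).

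Against the 4 Tfh2 groups, Tox in TfhA_4e4 was lower than in 2, did not pass against the third and was higher than in the last. TfhA_4e4 was lower by a log2 fold change of -1.25 against Tfh2_1e4 (edgeR adjusted p = 1.38e-08) and -0.98 against Tfh2_2e4 (7.91e-06). It was at -0.06 against Tfh2_4e4 and higher, at 0.88, against Tfh2_6e4 (3.78e-05). Over all genes, 41.7% passed against Tfh2_1e4 (20% lower), 31.3% against Tfh2_2e4 (16.1% lower) and 38.4% against Tfh2_6e4 (19.6% lower, 18.8% higher). Groups did not overlap for 27.1%, 21.3% and 23.6% of all genes in those pairs, which share the TfhA_4e4 libraries. Cxcr5, Tox2, Il21 and Angptl2, in contrast, were lower in TfhA_4e4 against each of the 4 Tfh2 groups, with no overlap in any of them. Sh2d1a was lower in TfhA_4e4 against Tfh2_1e4 (-0.55, edgeR adjusted p = 0.0484) and Tfh2_2e4 (-0.78, adjusted p = 0.00909), with overlap in both. Against Tfh2_4e4 and Tfh2_6e4 (-0.16, adjusted p = 0.631) Sh2d1a did not pass.

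**Figure D3:**
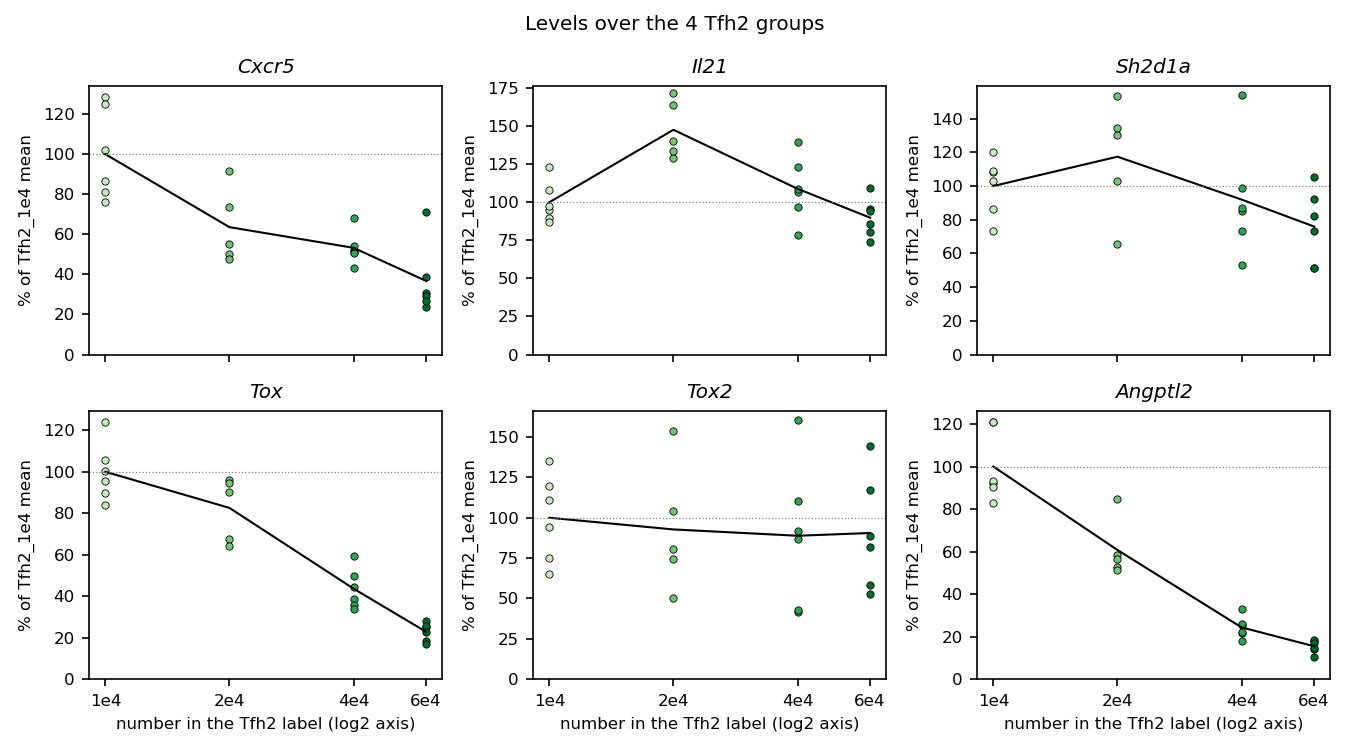
Level of each gene in each Tfh2 library (points) and group means (line) as a percentage of its mean in Tfh2_1e4, against the number in the label on a log2 axis. Angptl2, Tox and Cxcr5 decline to 15.4%, 22.8% and 36.7% at 6e4, Il21 peaks at 148% at 2e4, and Tox2 stays at 88.8% to 92.8% of its mean at 1e4.

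Cxcr5 averaged 15.5 ± 3.51 CPM in Tfh2_1e4, 9.85 ± 2.87 in Tfh2_2e4, 8.25 ± 1.27 in Tfh2_4e4 and 5.69 ± 2.71 in Tfh2_6e4. Its decline passed over the range and not at any single step: the slope was -0.51 ± 0.09 (edgeR adjusted p = 1.12e-05). The ends of the range, Tfh2_6e4 against Tfh2_1e4, differed by -1.43 ± 0.26 (adjusted p = 1.66e-05), without overlap. Angptl2 and Tox were the other members lower in that pair, also without overlap, while 43% of all genes passed, 20.7% were lower and 24.2% did not overlap.

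Il21 took another course. It averaged 69.2 ± 9.26 CPM in Tfh2_1e4, 102 ± 13.1 in Tfh2_2e4, 75.3 ± 14.6 in Tfh2_4e4 and 62.2 ± 8.71 in Tfh2_6e4. It was higher in Tfh2_2e4 than in Tfh2_1e4 by 0.56 ± 0.12 on the log2 scale (edgeR adjusted p = 0.00115), without overlap, and lower in Tfh2_4e4 than in Tfh2_2e4 by a log2 fold change of -0.44 ± 0.12 (adjusted p = 0.00828). That fall lost its call without both libraries that stood apart (-0.37, adjusted p = 0.0603). Tfh2_6e4 against Tfh2_4e4 did not pass (-0.28, adjusted p = 0.272), and neither did the slope (-0.09 ± 0.04, adjusted p = 0.0832). Across both of these steps, Il21 was lower in Tfh2_6e4 than in Tfh2_2e4 (-0.72 ± 0.12, edgeR adjusted p = 6.81e-06), without overlap. That pair was not fitted without the libraries that stood apart. The slope did pass with 9 of the 23 Tfh2 libraries left out in turn, and with a block for the replicate number (-0.09, adjusted p = 0.0473).

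Tox2 averaged 5.27 ± 1.42 CPM in Tfh2_1e4, 4.89 ± 2.07 in Tfh2_2e4, 4.69 ± 2.36 in Tfh2_4e4 and 4.78 ± 1.85 in Tfh2_6e4. Its slope was -0.06 with an approximate 95% interval of -0.28 to 0.15 (edgeR adjusted p = 0.673). Sh2d1a averaged 14.3 ± 2.44, 16.8 ± 4.88, 13.1 ± 4.89 and 10.9 ± 3.12 CPM over the same groups, and its slope was -0.16 ± 0.08 (adjusted p = 0.0760). Leaving out 1 library at a time, it passed in 5 of 23 cases, the smallest adjusted p being 0.0158 without Tfh2_4e4 replicate 4. The only pair of Tfh2 groups in which Sh2d1a passed was Tfh2_6e4 against Tfh2_2e4, at -0.62 (adjusted p = 0.0300). In that pair 5 of the 6 members passed, all lower in Tfh2_6e4. Over all genes 27.3% passed there, and 1520 of 11357 were lower.

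Bcl6 (chr16:23965050-23988866, minus strand) was counted 125 times in all 34 libraries and had 0 counts in 10 of them. TfhA_4e4 libraries had 3, 3, 0, 0 and 0 counts, and Tfh5_4e4 libraries had 0, 10, 10, 4, 6 and 8. With code Tfh2, libraries had 2, 0, 3, 0, 7 and 1 counts at 1e4, 4, 8, 10, 0 and 5 at 2e4, 3, 4, 2, 4, 2 and 6 at 4e4, and 0, 10, 0, 8, 2 and 0 at 6e4. Counts from 0 to 10 thus occurred within a single group, all groups overlapped, and Tfh2_4e4 alone had a count in every library.

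From the summed counts, the level of Bcl6 was 0.210 CPM in TfhA_4e4 (exact Poisson 95% interval 0.0772 to 0.458, 6 counts) and 0.840 CPM in Tfh5_4e4 (0.594 to 1.15, 38 counts). It was 0.224 CPM in Tfh2_1e4 (0.119 to 0.383, 13 counts), 0.705 in Tfh2_2e4 (0.465 to 1.03, 27 counts), 0.462 in Tfh2_4e4 (0.286 to 0.707, 21 counts) and 0.464 in Tfh2_6e4 (0.283 to 0.717, 20 counts). These intervals cover counting error only. A count of 0 over all 5 TfhA_4e4 libraries would have allowed up to 0.105 CPM, from 3 counts.

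**Figure D4:**
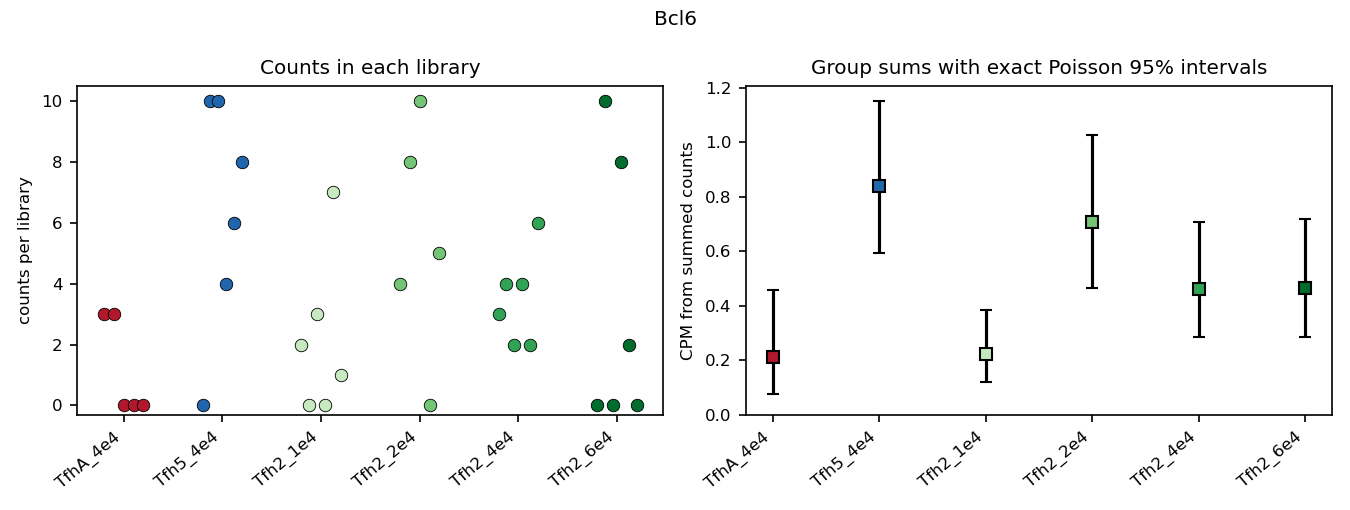
Bcl6 counts in each library (left, points) and CPM from the summed counts of each group with exact Poisson 95% intervals, which cover counting error only (right). No library exceeds 10 counts, and the group levels run from 0.210 CPM in TfhA_4e4 to 0.840 CPM in Tfh5_4e4.

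The Bcl6 ratio of TfhA_4e4 over Tfh5_4e4 was 0.251 (0.0866 to 0.598 for counting error), of TfhA_4e4 over Tfh2_4e4 0.455 (0.150 to 1.17) and of Tfh5_4e4 over Tfh2_4e4 1.82 (1.04 to 3.26). Tfh2_2e4 over Tfh2_1e4 stood at 3.15 (1.57 to 6.64). In an edgeR fit without the filter, over 18058 genes, the smallest adjusted p of Bcl6 over the 7 comparisons was 0.242, for TfhA_4e4 against Tfh5_4e4, where the log2 fold change was -1.82. It was 0.623 for TfhA_4e4 against Tfh2_4e4 and 0.577 for Tfh2_2e4 against Tfh2_1e4. A change of Bcl6 beyond the spread between libraries was not detected in the 7 comparisons at this depth. The ratio of Tfh5_4e4 over Tfh2_1e4, a pair outside them, was 3.75 (1.95 to 7.66 for counting error).

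Ranked by mean level over the 6 groups, the genes fell into different orders. Angptl2 was highest in Tfh2_1e4, followed by Tfh2_2e4, Tfh5_4e4, Tfh2_4e4, Tfh2_6e4 and TfhA_4e4, and it alone passed between all neighbours in its order. In Tfh5_4e4 against Tfh2_2e4, a pair not given above, its log2 fold change was -0.56 (edgeR adjusted p = 0.00693), where 11% of all genes passed. Cxcr5 and Tox2 passed only at the bottom, between TfhA_4e4 and the next group (Tfh2_6e4 for Cxcr5, Tfh2_4e4 for Tox2). Il21 passed at the bottom, between TfhA_4e4 and Tfh2_6e4, and at the top, between Tfh2_4e4 and Tfh2_2e4. Tox passed between TfhA_4e4 and Tfh2_6e4, its lowest group, and between Tfh5_4e4 and Tfh2_4e4. For Sh2d1a no neighbours in the order differed beyond their spread (edgeR adjusted p of 0.554 to 0.725), from 19.98 CPM in Tfh5_4e4 to 9.64 CPM in TfhA_4e4.

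The likeness of profiles was measured as the root mean square difference of group means of log2 CPM over the 6 groups, each gene centred on its own mean. Among members, Il21 and Sh2d1a were the closest pair (0.32), then Cxcr5 and Tox2 (0.40), and Tox and Tox2 were the farthest (1.49). Among 6794 other genes whose log2 CPM averaged 3 or more, the nearest to Cxcr5 was Golm1 (0.16), followed by F2r and Adam19. Nearest to Il21 were Myb (0.14), Trac and Tspan6, and nearest to Tox were Cd96 (0.16), Cdc42ep3 and Pdcd1, the gene of the receptor PD-1 (0.19). Tox2 lay nearest to Cd38 (0.12), Acsbg1 and Nynrin, Sh2d1a to Tcf7, the gene of the transcription factor TCF-1 (0.07), Lysmd3 and Slc30a5, and Angptl2 to Timp2 (0.17), Arhgap31 and Rasgef1b. These are descriptions over 6 group means from 34 libraries. The profiles differ in height: Il21 and Sh2d1a span 1.57 and 1.08 on the log2 scale between their highest and lowest group, Cxcr5 4.77.

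Other genes of the TFH programme were followed as lists. Their counts stand beside the shares of all genes that passed. Those were 15.5% higher and 17.4% lower in TfhA_4e4 against Tfh2_4e4, and 1.41% and 1.7% in Tfh5_4e4 against Tfh2_4e4. Along the Tfh2 numbers they were 24.1% rising and 22.8% falling. Of 16 TFH transcription factors tested, 3 rose and 6 fell in TfhA_4e4 against Tfh2_4e4. The largest changes were in Maf, which encodes c-Maf (18.8 ± 2.72 CPM in TfhA_4e4 and 629 ± 115 CPM in Tfh2_4e4, log2 fold change -5.06, edgeR adjusted p = 6.89e-31), Ikzf3, the gene of Aiolos (-4.19), Pou2af1, the gene of the coactivator OCA-B (-2.17), and Id3, an inhibitor of E proteins (1.63). In Tfh5_4e4 against Tfh2_4e4, Ikzf3 (0.64), Pou2af1 (0.63) and Maf (0.42, adjusted p = 0.00966) rose. Beside 24.1% rising and 22.8% falling over all genes, 6 of the 16 rose and 7 fell along the Tfh2 numbers. Among them were Egr2 (-0.90 per doubling), Pou2af1 (-0.66), Nfatc1 (-0.65) and Stat3 (0.49). Slopes were larger for Ascl2 (2.77, edgeR adjusted p = 3.93e-08) and Egr3 (-1.66, adjusted p = 0.00132), with 212 and 175 counts in all libraries.

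Most surface molecules of TFH cells that passed were higher in TfhA_4e4, where Cxcr5 was lower. Of 14 receptors and ligands tested, 8 rose and 3 fell in TfhA_4e4 against Tfh2_4e4, beside 15.5% and 17.4% of all genes. Cd200 rose by 2.84 (edgeR adjusted p = 9.81e-15) and Btla by 2.62 (adjusted p = 9.99e-15), both inhibitory surface proteins, while Il6st, the signalling chain of the IL-6 receptor, had a log2 fold change of -2.68 (adjusted p = 4.93e-12). Tnfsf8, the gene of CD30 ligand, rose by 4.81 in all libraries and by 8.39 without the 2 that stood apart. In Tfh5_4e4 against Tfh2_4e4, 3 of the 14 fell: Icos (-0.98), Tnfrsf4, the gene of OX40 (-0.81), and Tnfsf8 (-3.61). The call of Tnfsf8 rested on Tfh2_4e4 replicate 3, with 18.2 CPM against 0.805 CPM or less in the other 5 libraries, and without the 2 libraries the change was -0.02 (adjusted p = 0.998). Along the Tfh2 numbers 8 of the 14 rose and 2 fell. Izumo1r (0.85 per doubling), Il21r (0.57) and Icos (0.48) were among those that rose, and Pdcd1 (-0.86) among those that fell.

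**Figure D5:**
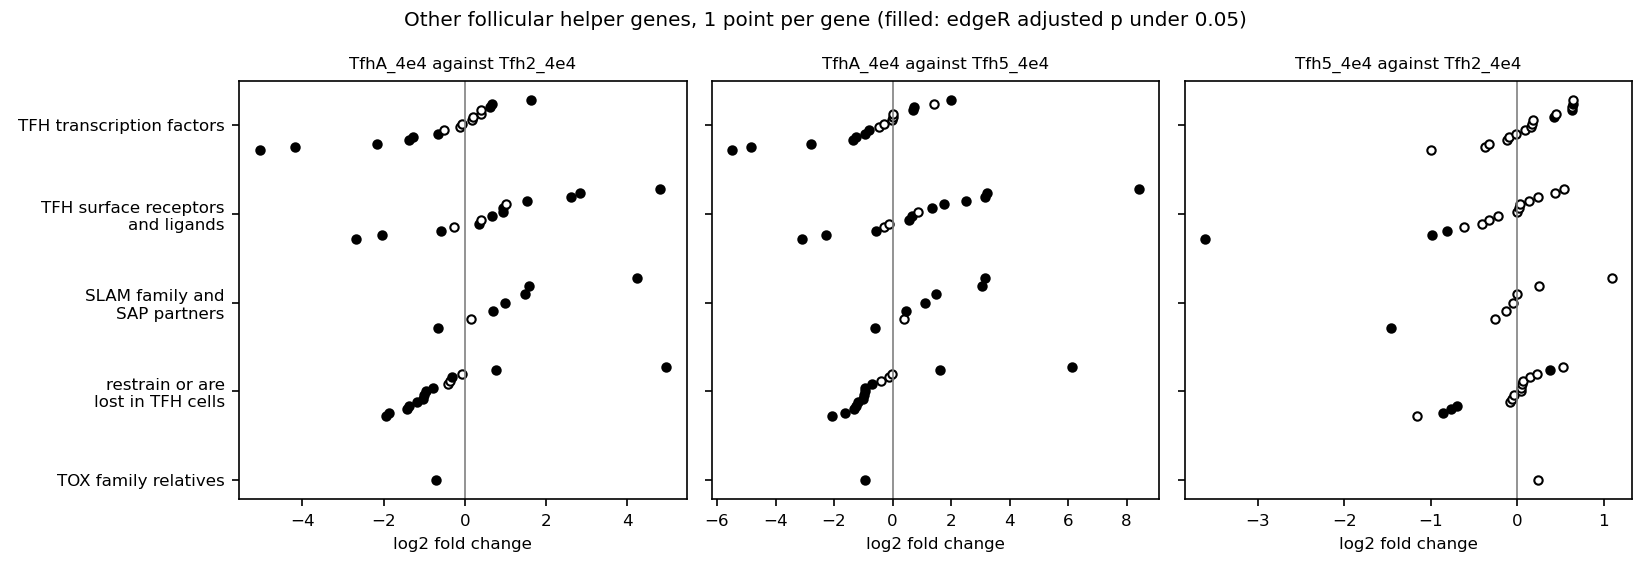
Log2 fold changes of the other listed TFH genes in the 3 pairs of codes, 1 point per gene tested and 1 row per list; filled points passed edgeR at an adjusted p under 0.05. In both TfhA_4e4 panels the surface list has 8 filled points above 0 and 3 below, and the list of restraining genes has 2 above and 10 below. Over all genes 15.5% were higher and 17.4% lower in TfhA_4e4 against Tfh2_4e4, and 19.1% and 20.4% against Tfh5_4e4.

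Of 7 tested SLAM family genes and partners of SAP, 5 rose and 1 fell in TfhA_4e4 against Tfh2_4e4, where Sh2d1a itself had not passed. Over all genes 15.5% were higher and 17.4% lower in this pair. Slamf7 rose by 1.59, Slamf1 by 1.48, Cd84 by 0.98 and the kinase gene Fyn by 0.69 on the log2 scale, with an edgeR adjusted p of 5.25e-06 for Cd84 and smaller values for the other 3. Slamf6 had the largest change, a rise of 4.25 (adjusted p = 8.04e-05), from 208 counts in all libraries. In Tfh5_4e4, Slamf7 alone of the 7 passed, at 9.45 ± 3.49 CPM against 25.8 ± 6.41 CPM in Tfh2_4e4 (-1.46, adjusted p = 0.000519). Over the Tfh2 numbers it rose by 2.37 per doubling.

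Genes that restrain TFH cells or are low in them were mostly lower in TfhA_4e4 as well. Of 15 tested, 10 fell and 2 rose against Tfh2_4e4, beside 17.4% and 15.5% of all genes. Log2 fold changes were -1.93 for Foxo1, -1.87 for the IL-7 receptor gene Il7r and -1.41 for Stat5b, while Tbx21, the TH1 factor T-bet, rose by 4.97, and by 6.97 without the 2 libraries that stood apart. In Tfh5_4e4 against Tfh2_4e4, Gpr183 (-0.86), Id2 (-0.77) and Il7r (-0.70) fell and Foxp1 rose (0.38). Along the Tfh2 numbers 11 of the 15 rose and 1 fell, and 10 rose and 3 fell without the 2 libraries, where Tbx21 (-0.53, adjusted p = 0.0206) and Bach2 (-0.08, adjusted p = 0.0301) also fell. Tox4, the other TOX family gene that passed the filter, fell by 0.70 in TfhA_4e4 against Tfh2_4e4 (edgeR adjusted p = 1.32e-05). Medians of the lists in this pair were -0.10 for the transcription factors, 0.80 for the surface molecules, 0.98 for the SLAM list and -0.97 for the restraining genes, beside -0.01 for all genes. Without the 2 libraries that stood apart, 2 transcription factors rose and 6 fell in this pair, 9 surface molecules rose and 3 fell, and 2 restraining genes rose and 11 fell. The SLAM list had 5 and 1 again. In Tfh5_4e4 against Tfh2_4e4, the surface list then had 1 rising and 2 falling. Along the Tfh2 numbers, 6 transcription factors then rose and 8 fell, and 9 surface molecules rose and 2 fell.

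Markers of other cell types moved with TfhA_4e4 in 2 lists. The summed B cell list was at 5.76 to 15.1 CPM in TfhA_4e4 and 0 to 3.98 CPM elsewhere, with 4 of its 8 genes counted in TfhA_4e4. Ebf1 held nearly all of it there (324 counts), Ms4a1 had 3 counts, and Cd79a, Cd22, Pax5 and Blk were at 0. The summed stromal list was at 5.18 to 8.46 CPM in TfhA_4e4, with 3 of 4 genes counted, Dcn (184 counts) the main one and Col1a2 at 0. Elsewhere it was at 0 to 3.28 CPM, the highest in Tfh2_4e4 replicate 3 with 27 Dcn counts. The part of Ebf1 and Dcn in the member results was not tested. The CD8 T cell list stayed at 3.84 to 15.5 CPM, the myeloid list at 3.48 CPM or less, the NK cell list at 3.59 CPM or less and the erythroid list at 2.82 CPM or less in all groups.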

How the data were processed

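Tables of raw counts per gene identifier were deposited by the authors, 1 per library. Per the labels' protocols, libraries were made with a Lexogen kit that reads the 3′ end of transcripts from 50 ng of RNA, so counts do not scale with gene length. Build mm10 and the tools featureCounts 1.6.4 and STAR 2.7.2b are listed, per the submitters' processing notes, with no step assigned. Strand setting and handling of multiply mapping reads are not given in the sources used here. Symbols and positions came from RefSeq (GRCm38.p6, the assembly of mm10) by identifier (25275 of 27179 matched), and exon overlaps from GENCODE M21.

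All 34 libraries were fitted in edgeR 4.0.16 (R 4.3.3): TMM, filterByExpr by group, 6 groups, 2-sided quasi-likelihood tests, Benjamini-Hochberg over 11357 genes, threshold 0.05. In the text, p-values are adjusted edgeR values unless another tool is named, and intervals of fold changes are approximate. CPM are counts on TMM-scaled totals. Log2 CPM used a prior count of 1. Alternatives were other size factors, no filter, DESeq2 1.42.0, limma-voom (limma 3.58.1), other samples or terms in the fit, and each library left out in turn. The pipeline was tested on simulated data. Members, lists and comparisons were chosen with earlier results of these data known. Named genes are the 7 members, the 3 most alike genes for each, and up to 4 genes per list and comparison that passed with the largest change (mean log2 CPM of at least 1). Not all are named. Ascl2, Egr3 and Slamf6 lie below that level and are given for their larger changes. A comparison of the Tox and Tox2 proteins was planned and not made. The values of 1 listed marker gene are not reported here.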

Additional observations from a re-analysis of the deposited data

Results flagged for a closer look

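In Tfh2_6e4, Cxcr5 had 11.005 CPM in replicate 1, against 3.68 to 6.00 CPM in the other 5 libraries. In Tfh2_2e4, Angptl2 had 99.5 CPM in replicate 1, against 60.5 to 68.9 CPM in the other 4. Each stood far from the rest of its group by Dixon's test at the 95% level, with a gap of 0.684 of the group's range for Cxcr5 and 0.785 for Angptl2. The test was run on 42 groups of member values, and chance flags about 1 in 20. Without its replicate, the log2 fold change of Cxcr5 in Tfh2_6e4 against Tfh2_4e4 was -0.83 (edgeR adjusted p = 0.0996), and -0.52 with all libraries. Without its replicate, that of Angptl2 in Tfh2_2e4 against Tfh2_1e4 was -0.87 (adjusted p = 6.47e-05), and -0.72 with all libraries.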

How the results depend on the processing

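Over 42 results for members (6 genes in 7 comparisons), the alternatives gave 966 values, of which 926 kept both direction and side of the threshold, 8 lost the call, 20 gained it and 12 changed sign. For Tfh5_4e4 against Tfh2_4e4, 353 genes passed, 584 with a replicate block, and 2 members, 1 in a fit of the groups compared only and 1 to 3 with a library left out. For Tfh2_6e4 against Tfh2_4e4, 168 genes passed, 275 with DESeq2, 74 with the groups compared only, 381 with a replicate block, 303 with a term for numbers 1 to 3 against 4 to 6, and 90 without the 2 libraries that stood apart. Leaving out 1 library gave 55 (Tfh2_6e4 replicate 5) to 269 (Tfh2_4e4 replicate 4), with 72 to 107 for Tfh2_4e4 replicates 1 and 3 and Tfh2_6e4 replicates 2 and 4. There 2 members passed, 1 with the groups compared only (Angptl2 at -0.66, adjusted p = 0.0547), 1 without the 2 libraries and 1 to 2 with a library left out. Over the Tfh2 slope 3 members passed, and 3 to 5 with a library left out, 5 for Tfh2_1e4 replicate 3, Tfh2_4e4 replicate 4 or Tfh2_6e4 replicate 3. The cause was not tested.

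Changes of sign came only with a library left out and in results that had not passed. They were TfhA_4e4 against Tfh2_4e4 for Tox (-0.13 to 0.039), Tfh5_4e4 against Tfh2_4e4 for Il21 (-0.12 to 0.058), and Tox2 in Tfh2_2e4 against Tfh2_1e4 (-0.36 to 0.046), Tfh2_4e4 against Tfh2_2e4 (-0.33 to 0.15) and Tfh2_6e4 against Tfh2_4e4 (-0.16 to 0.28). Limma-voom also called Cxcr5 in Tfh2_2e4 against Tfh2_1e4 (-0.66, adjusted p = 0.0494). The Sh2d1a slope passed with the mitochondrial RNA share as a covariate (-0.18, adjusted p = 0.0452).

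The labels do not say that a replicate number marks a shared source, and the numbers were not treated as pairs: 15 of 80 pairs with the same number correlated above 0.1 after removal of group means, the mean was 0.049 for the same number and -0.0098 for others, and the best partner shared the number for 16 of 34 libraries. The last value points to variation shared by number in these data, and a pairing was not excluded. With a replicate block, 584 genes passed in Tfh5_4e4 against Tfh2_4e4, beside 353 without it, and 2 members in both fits. The main fit holds no term for the number. Depth limits Bcl6 in all groups, and Tox2 and Cxcr5 in TfhA_4e4 (7 and 19 counts). The alternative without the 2 libraries was added after seeing the data. It left 4 members past the threshold for TfhA_4e4 against Tfh2_4e4, 6 against Tfh5_4e4, 2 for Tfh5_4e4 against Tfh2_4e4, 2 (in place of 3) for Tfh2_4e4 against Tfh2_2e4, and 3 for the slope.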
